A study of Homo sapiens with 4 samples.

Results

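The histone genes described were 117 rows, of 57815 genes in the deposited table, with a name that starts with HIST1H, HIST2H, HIST3H, HIST4H, H2AF, H3F or H1F. By the annotation, 71 of them are protein-coding genes of the histone clusters (clustered HIST genes), 15 are protein-coding variant genes outside those naming series (H1F, H2AF and H3F) and 31 are pseudogenes or antisense RNAs. Transcripts were measured by sequencing of polyA RNA in 2 libraries of 3′ WRE-Mut cells and 2 of control cells. 3′ WRE-Mut is 1 clone of HCT116, a line established from a human colorectal cancer, in which gene editing deleted the TCF binding element TBE1 in the Wnt-responsive element downstream of MYC on both alleles. The control was the unedited HCT116 population from which the clone was made, which is wild type at TBE1. Both 3′ WRE-Mut libraries come from that clone, so its deletion and its other differences from the parental population cannot be told apart.

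Histones are the proteins around which DNA is wound. The core types H2A, H2B, H3 and H4 form the nucleosome, and the linker type H1 binds the DNA between nucleosomes. Clustered genes are replication-dependent: they are transcribed in S phase, and most of their mRNAs end in a short stem-loop, bound by the protein SLBP, in place of a poly(A) tail. Variant genes are transcribed through the cell cycle, give polyadenylated mRNAs and encode histones with roles of their own, such as H2A.X in the response to DNA breaks or macroH2A in repressed chromatin. A polyA library is made from transcripts with a poly(A) tail, so the stem-loop form of clustered mRNAs is not what it is meant to capture.

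The stem-loop was looked for in the genome, since it is the feature that sets the classes apart. In the 100 bases after the stop codon it was found in 66 of the 66 clustered genes that could be matched to a current gene entry, in 1 of 15 variant genes and in 72 (0.359%) of 20034 protein-coding genes. Members shared 10 forms of it, of which the most frequent were those of 39, 9, 9 and 4 members, printed here 5′ to 3′ as DNA with the 6 bases of each side of the stem in capitals and the 4 bases of the loop in lower case. The last line is the form of H2AFX, the variant gene with a stem-loop, which no other member had.
Form of 39 members: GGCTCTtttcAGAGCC
First form of 9 members: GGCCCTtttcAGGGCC
Second form of 9 members: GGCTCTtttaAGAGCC
Form of 4 members: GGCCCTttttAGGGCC
H2AFX: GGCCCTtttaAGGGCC
The H2AFX stem-loop lies at chr11:118965608-118965623 on the minus strand of hg19, and its first base is base 50 after the stop codon. Its deposited locus runs on for 1045 bases past the stem-loop.

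From 26851 to 29356 genes were above 0 per library. Values are FPKM (fragments scaled by exon length and by the mapped total of the library), so levels of different genes can be set side by side per length, but depth per library is unknown, and the only error given for a single value is the lower and upper bound that the authors deposited with it. MYC, the gene next to the deleted element, had 48.0 and 34.2 FPKM in 3′ WRE-Mut and 111 and 113 FPKM in control. Of 11 epithelial markers, KRT8 was at 725 to 1029 FPKM and CDX1 at 0 in every library, and the 11 summed to 1920 and 1810 FPKM in 3′ WRE-Mut and to 2865 and 2622 FPKM in control. The 10 markers of blood, fibroblast and endothelial cells with a row summed to 21.9 and 29.3 FPKM in 3′ WRE-Mut and to 15.2 and 18.2 FPKM in control, and COL1A1 alone made up nearly all of it. Their part in the results was not tested.

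Of the 117 histone genes, 72 had a value above 0 in at least 1 library and 31 averaged 1 FPKM or more across libraries. These 31 were 21 clustered genes, 9 variant genes and the antisense RNA H1FX-AS1, and only they entered the tests. Differences were tested with limma on log2(FPKM + 1) with Benjamini-Hochberg adjustment, over all 14815 genes past the filter and, in a second fit, over the 11737 protein-coding ones. Over all genes, limma called 0 histone genes higher and 0 lower in 3′ WRE-Mut at an adjusted p under 0.05, where 0.0877% of all tested genes were called higher and 0.101% lower. With an unadjusted p of under 0.05 as the limit, that fit put 2 members higher and 3 lower, against 11.0% and 11.2% of all tested genes. Over protein-coding genes 1 member was called higher (HIST1H2BJ) and 1 lower (H2AFX), where 4.0% of the genes tested were called higher and 4.29% lower. At the same unadjusted limit, 7 of the 30 members tested were higher and 4 lower, against 14.6% and 15.6% of protein-coding genes. "Rose" and "fell" below refer to the calls of this second fit, and adjusted p-values come from limma. In 2 libraries against 2, an exact two-sided permutation test of a single gene cannot go below p = 0.333.

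The class medians lay on opposite sides of 0. The 9 tested variant genes had a median log2 difference of -0.33 between 3′ WRE-Mut and control, and the 21 tested clustered genes one of 0.45, beside -0.02 over all protein-coding genes tested. Of the 9 variant genes, 7 had both 3′ WRE-Mut values below both control values and 0 had both above, where 32.1% and 30.8% of protein-coding genes had these patterns. Of the 21 clustered genes, 7 had both above, 2 had both below and 12 overlapped, so the share with both above was near that of all genes. The clustered median came to 0.14 with no filter on low values and to 0.18 without control replicate 2, and the variant median came to -0.16 without 3′ WRE-Mut replicate 1.

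**Figure D1:**
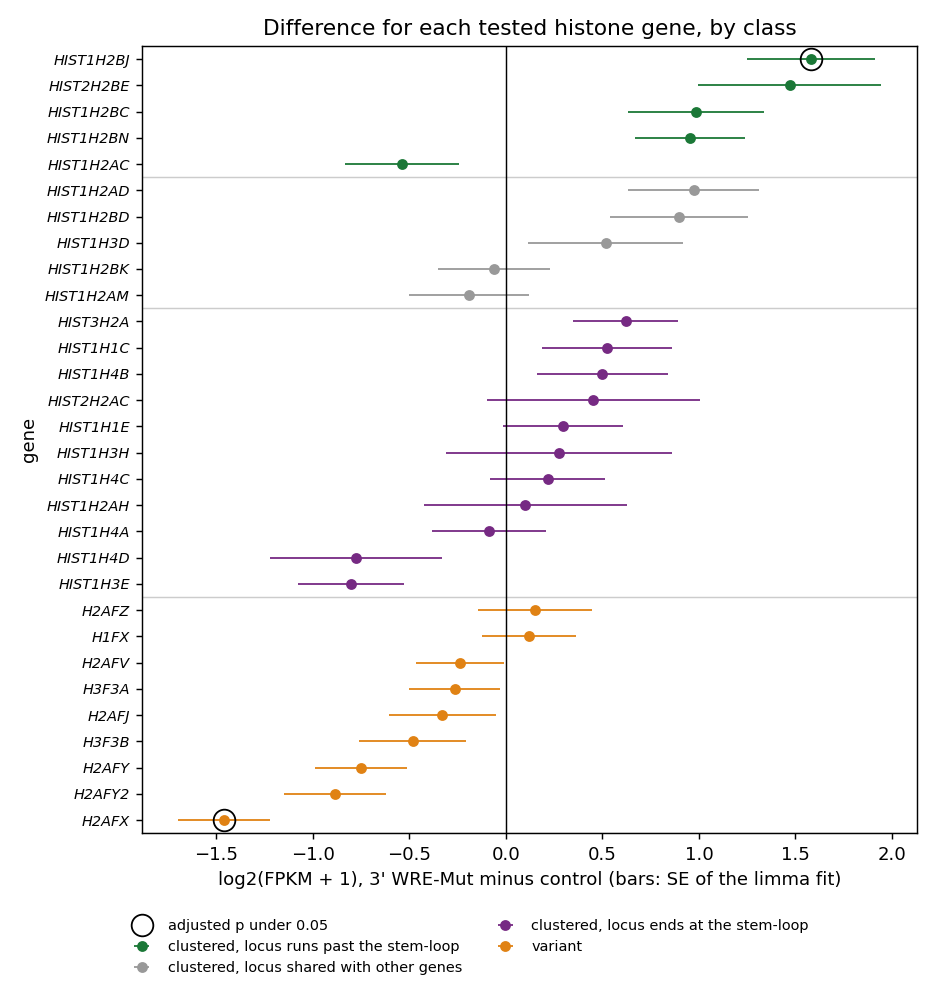
Difference in log2(FPKM + 1) between 3′ WRE-Mut and control (horizontal axis, bars are the SE of the limma fit) for the 30 tested histone genes, grouped by class and by where the deposited locus ends. Circled points passed an adjusted p of 0.05: HIST1H2BJ at 1.58 and H2AFX at -1.46.

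H1FX encodes H1.X, a replication-independent linker histone. Its levels were 73.1 and 88.4 FPKM in 3′ WRE-Mut and 84.6 and 64.7 FPKM in control, and the groups overlapped (log2 difference 0.12, adjusted p = 0.769). The antisense RNA H1FX-AS1 shares its deposited locus and had 47.0 and 64.1 FPKM in 3′ WRE-Mut, against 54.4 and 37.9 FPKM in control. Because no source states whether strand was kept, reads of H1FX and of H1FX-AS1 cannot be told apart where they overlap. H1FOO, the oocyte form, was listed at 0 in every library, and the testis form H1FNT did not exceed 0.172 FPKM.

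Among H2A variants, H2AFX fell. Its product, H2A.X, is phosphorylated around DNA double-strand breaks, and the gene gives both a stem-loop and a polyadenylated mRNA. H2AFX lies on chromosome 11 at 118964563 to 118966177. It had 18.8 and 16.05 FPKM in 3′ WRE-Mut and 54.3 and 45.2 FPKM in control, or 17.4 ± 1.94 against 49.7 ± 6.49 FPKM (SD, n = 2 each). Both 3′ WRE-Mut values were far below both control values, with a log2 difference of -1.46 (SE 0.24, adjusted p = 0.0205 over protein-coding genes and 0.141 over all genes). The authors' bounds were 9.15 to 28.5 and 7.57 to 24.5 FPKM in 3′ WRE-Mut, against 27.8 to 80.8 and 23.1 to 67.2 FPKM in control, so they overlapped slightly. The log2 difference was -1.33 (adjusted p = 0.139) without control replicate 1 and -1.59 (adjusted p = 0.0873) without control replicate 2, where 0.392% and 0.511% of protein-coding genes were called lower.

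The 2 macroH2A genes, whose products carry a large extra domain and are found in repressed chromatin, had lower values in 3′ WRE-Mut that missed the threshold. H2AFY, which encodes macroH2A1, had 53.5 and 42.5 FPKM in 3′ WRE-Mut and 87.3 and 74.8 FPKM in control (log2 difference -0.75, SE 0.24, adjusted p = 0.0796). H2AFY2, which encodes macroH2A2, had 4.88 and 4.57 FPKM in 3′ WRE-Mut and 10.5 and 8.72 FPKM in control (log2 difference -0.88, SE 0.27, adjusted p = 0.0695). In neither gene did the groups overlap. Both passed the threshold without 3′ WRE-Mut replicate 1, at adjusted p-values of 0.00642 and 0.0154, a setting that called 19.9% of protein-coding genes lower. The deposited locus of H2AFY is merged over 8 genes and that of H2AFY2 over 2. Merged loci also hold H2AFZ (7 genes), H3F3B (4), H1FX (3) and H3F3A (2), and the clustered genes HIST1H2BD and HIST1H2BK (2 each).

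H2A.Z is encoded by 2 genes and marks promoters and enhancers. H2AFZ (H2A.Z.1) had 149 and 259 FPKM in 3′ WRE-Mut and 194 and 161 FPKM in control, and made up 45.9% and 59.7% of the summed H2A level in 3′ WRE-Mut and 42.9% and 41.2% in control. H2AFV (H2A.Z.2) had 44.3 and 53.4 FPKM in 3′ WRE-Mut and 56.5 and 58.6 FPKM in control. H2AFZ values overlapped between the groups and those of H2AFV did not, but neither difference passed the threshold (log2 differences 0.15 and -0.24, adjusted p = 0.758 and 0.509). The H2AFZ difference turned to -0.25 without 3′ WRE-Mut replicate 2. H2AFJ, which encodes H2A.J, had 9.83 and 6.71 FPKM in 3′ WRE-Mut and 10.2 and 10.8 FPKM in control (adjusted p = 0.453). The testis genes H2AFB1, H2AFB2 and H2AFB3 were listed at 0 in every library.

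H3.3, the H3 variant placed independently of replication at active genes and at telomeres, is encoded by H3F3A and H3F3B. H3F3B was the most abundant histone gene in every library, at 259 and 404 FPKM in 3′ WRE-Mut and 493 and 416 FPKM in control. H3F3A had 48.3 and 59.5 FPKM in 3′ WRE-Mut and 69.2 and 60.3 FPKM in control. For both genes the 3′ WRE-Mut values lay below the control values, and the differences missed the threshold (log2 differences -0.48 and -0.27, adjusted p = 0.271 and 0.473). The share of H3F3B in the summed H3 level was 82.4% and 85.5% in 3′ WRE-Mut and 86.6% and 86.4% in control. H3F3C, which encodes the testis form H3.5, did not exceed 0.148 FPKM.

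**Figure D2:**
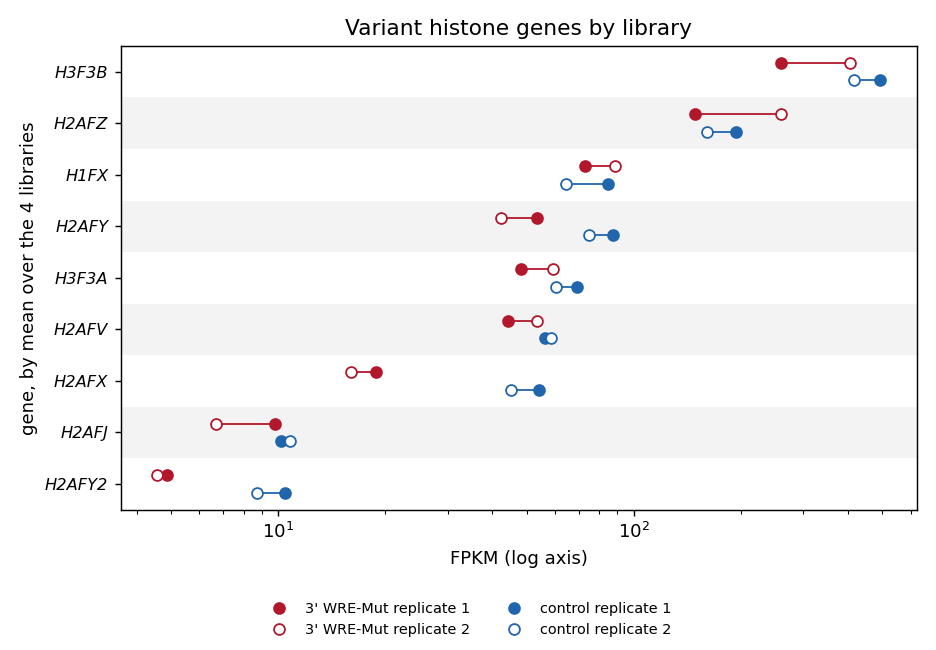
Levels in FPKM (log axis) of the 9 variant histone genes that averaged 1 FPKM or more, with 3′ WRE-Mut libraries in red above control libraries in blue. For H2AFX the red points lie at 18.8 and 16.05 and the blue ones at 54.3 and 45.2.

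Clustered genes were much lower in these polyA libraries than variant genes. Of the 71 clustered genes, 23 were listed at 0 in every library, and 4 had a mean of at least 10 FPKM. The clustered genes summed to 167 and 254 FPKM in 3′ WRE-Mut and to 161 and 119 FPKM in control, which was 20.1% and 21.4% of the summed FPKM of the 71 clustered and 15 variant genes in 3′ WRE-Mut and 13.2% and 11.6% in control. The 15 variant genes summed to 661 and 935 FPKM in 3′ WRE-Mut and to 1060 and 900.0 FPKM in control. Thus both 3′ WRE-Mut libraries had a larger clustered share than both control libraries, but with different sums. In 3′ WRE-Mut replicate 1 the clustered sum (167) was close to that of control replicate 1 (161), and the variant sum (661) was below both controls. In 3′ WRE-Mut replicate 2 the clustered sum (254) was above both controls, and the variant sum (935) lay between them. Clustered genes of 1 type encode near-identical proteins, and how reads that match several genes were counted is not stated, so values of single clustered genes are uncertain.

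**Figure D3:**
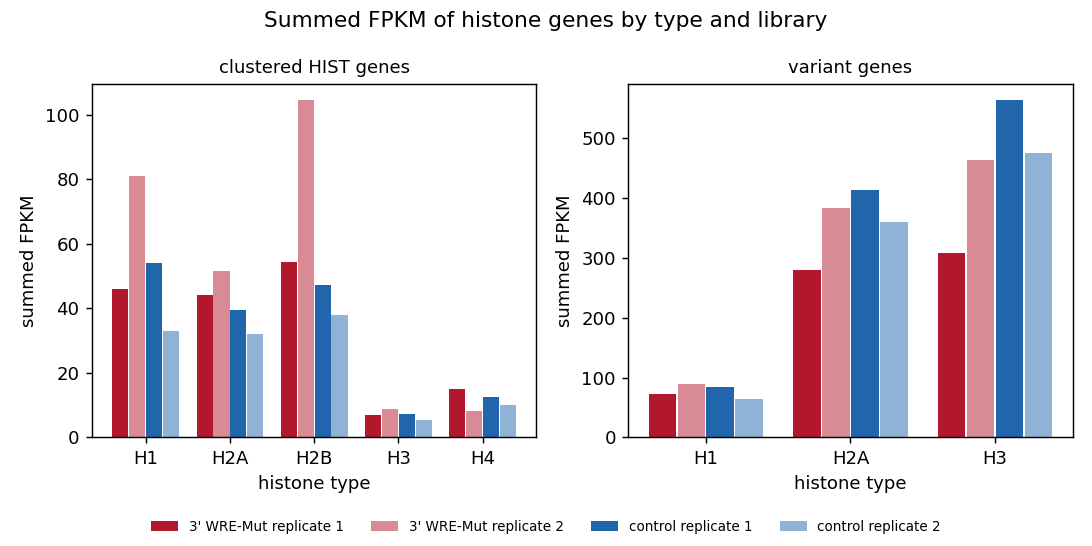
Summed FPKM (vertical axis) of clustered HIST genes on the left and of variant genes on the right, by histone type, with the 2 3′ WRE-Mut libraries left of the 2 control libraries. The clustered H1 sum is 46.0 and 81.0 in 3′ WRE-Mut and 54.0 and 33.0 in control, and the clustered H2B sum is 54.5 and 104 in 3′ WRE-Mut and 47.3 and 38.0 in control.

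Among clustered genes of H2B, the partner of H2A in the nucleosome, HIST1H2BJ rose. It lies on chromosome 6 at 27093675 to 27100541, and had 3.75 and 6.56 FPKM in 3′ WRE-Mut and 0.703 and 1.35 FPKM in control, or 5.15 ± 1.98 against 1.03 ± 0.458 FPKM (SD, n = 2 each). The mean level in 3′ WRE-Mut was 5.02 times that in control, and the log2 difference was 1.58 (SE 0.33, adjusted p = 0.0337 over protein-coding genes and 0.163 over all genes). The log2 difference was 1.35 (adjusted p = 0.214) without control replicate 1 and 1.81 (adjusted p = 0.111) without control replicate 2, where 0.307% and 0.204% of protein-coding genes were called higher. The authors' lower bound for HIST1H2BJ was 0 in all 4 libraries.

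Of the other 5 H2B genes tested, 4 had no overlap between the groups, with higher values in 3′ WRE-Mut that missed the threshold. Both 3′ WRE-Mut values were above both control values in 30.8% of protein-coding genes. Below the filter, HIST2H2BF and HIST3H2BB were higher in both 3′ WRE-Mut libraries, and HIST1H2BO and HIST1H2BF lower in both. The authors' lower bound was 0 in all 4 libraries for HIST2H2BF, HIST1H2BO and HIST1H2BF, and values of HIST1H2BF lay between 0.131 and 0.190 FPKM. HIST2H2BE had 3.89 and 14.1 FPKM in 3′ WRE-Mut and 2.43 and 1.79 FPKM in control (log2 difference 1.47, SE 0.47, adjusted p = 0.0826). HIST1H2BC had 2.28 and 5.35 FPKM in 3′ WRE-Mut and 1.42 and 1.19 FPKM in control (log2 difference 0.99, adjusted p = 0.103). HIST1H2BN had 3.37 and 2.65 FPKM in 3′ WRE-Mut and 0.859 and 1.29 FPKM in control (log2 difference 0.95, adjusted p = 0.068). In HIST2H2BE and HIST1H2BC the higher values came mainly from 3′ WRE-Mut replicate 2, and in HIST1H2BN both 3′ WRE-Mut libraries stood apart from control. HIST1H2BD, which made up 49.0% and 53.7% of the summed H2B level in 3′ WRE-Mut and 51.7% and 44.6% in control, had 26.7 and 56.1 FPKM in 3′ WRE-Mut and 24.4 and 16.9 FPKM in control (adjusted p = 0.132). The groups overlapped in HIST1H2BK, at 11.1 and 18.0 FPKM in 3′ WRE-Mut and 15.9 and 13.8 FPKM in control (log2 difference -0.06, adjusted p = 0.901).

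Calls among the 30 members tested over protein-coding genes varied with the libraries used, as did those among all protein-coding genes. Leaving out 3′ WRE-Mut replicate 1 gave 10 members called higher, HIST2H2BE, HIST1H2BC, HIST1H2BD and HIST1H2BN among them, and 6 lower, where 17.3% and 19.9% of protein-coding genes were called. Leaving out 3′ WRE-Mut replicate 2 gave 3 higher and 1 lower, where 4.76% and 5.75% were called. Without control replicate 1 or control replicate 2, 0 members were called higher and 0 lower, in settings that called no more than 0.511% of protein-coding genes in either direction. With 1 library left in a group, the spread comes from the other group alone.

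Of the 6 clustered H2A genes tested, 4 had a log2 difference above 0 and 2 below, and 0 were called. HIST3H2A, an H2A gene on chromosome 1, had 23.6 and 32.5 FPKM in 3′ WRE-Mut and 20.4 and 15.3 FPKM in control (log2 difference 0.62, adjusted p = 0.163). HIST1H2AC had 4.38 and 6.47 FPKM in 3′ WRE-Mut and 9.49 and 7.07 FPKM in control (log2 difference -0.54, adjusted p = 0.252). HIST1H2AD had 2.02 and 2.30 FPKM in 3′ WRE-Mut and 1.19 and 0.184 FPKM in control (log2 difference 0.97, adjusted p = 0.0993). In these 3 genes the groups did not overlap, with HIST3H2A and HIST1H2AD higher and HIST1H2AC lower in both 3′ WRE-Mut libraries. The control mean of HIST1H2AD was 0.685 FPKM, under the filter limit. HIST1H2AD shares its deposited locus with HIST1H3D, whose groups overlapped. HIST2H2AC had 1.01 and 7.24 FPKM in 3′ WRE-Mut and 1.88 and 2.07 FPKM in control, and HIST1H2AH had 5.59 and 0.770 FPKM in 3′ WRE-Mut and 2.23 and 2.14 FPKM in control. For both, the 3′ WRE-Mut libraries fell on either side of the control libraries, and the sign of the difference turned with the 3′ WRE-Mut library left out.

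Among clustered H1 genes, HIST1H1C, which encodes H1.2, was the most abundant clustered gene. It had 43.0 and 76.5 FPKM in 3′ WRE-Mut and 50.6 and 30.9 FPKM in control, which overlapped (log2 difference 0.52, SE 0.34, adjusted p = 0.320). HIST1H1E, which encodes H1.4, had 2.85 and 4.26 FPKM in 3′ WRE-Mut and 3.35 and 2.08 FPKM in control (adjusted p = 0.547).

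Clustered genes of H3 and H4, the pair at the core of the nucleosome, were close to the filter. HIST1H4B had 4.59 and 2.53 FPKM in 3′ WRE-Mut and 2.85 and 1.56 FPKM in control, and HIST1H4C had 4.02 and 2.77 FPKM in 3′ WRE-Mut and 3.27 and 2.28 FPKM in control. HIST1H3H had 0.351 and 5.07 FPKM in 3′ WRE-Mut and 1.63 and 1.12 FPKM in control. All 3 overlapped between the groups, with adjusted p-values of 0.349 to 0.775. The 6 tested clustered genes with the lowest means (HIST1H2AD, HIST1H2AM, HIST1H3D, HIST1H3E, HIST1H4A and HIST1H4D) lay between 0 and 2.57 FPKM in every library, with log2 differences of -0.80 to 0.97 and none called. HIST1H3E was lower without overlap, at 0.548 and 0.503 FPKM in 3′ WRE-Mut and 1.95 and 1.40 FPKM in control (limma log2 difference -0.80, adjusted p = 0.0954).

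**Figure D4:**
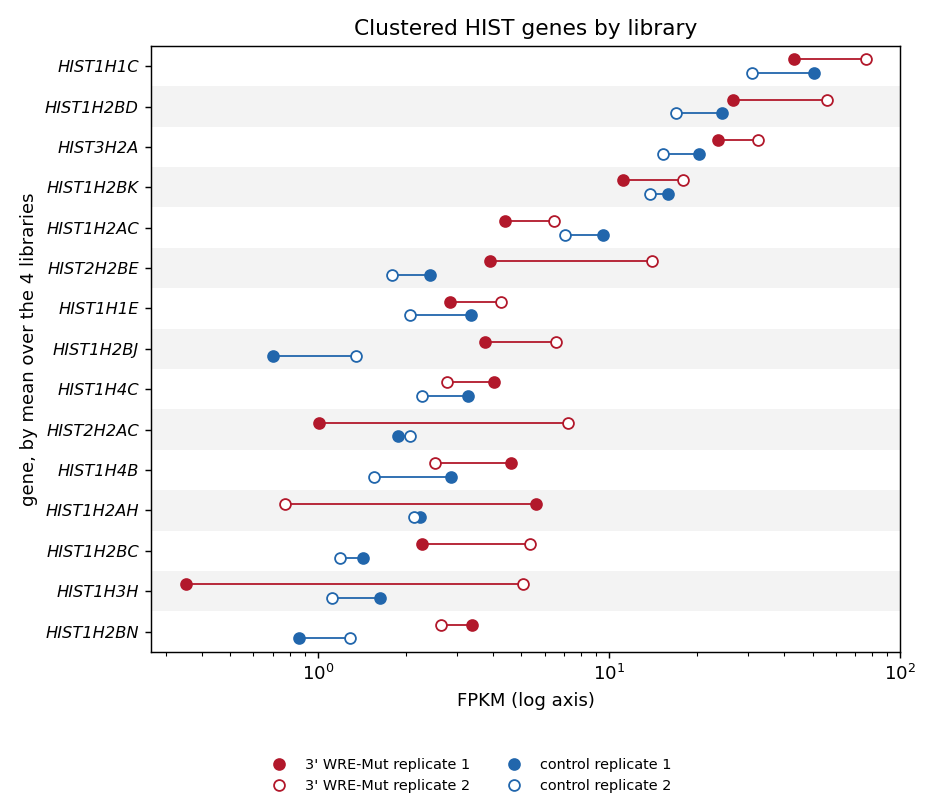
Levels in FPKM (log axis) of the 15 clustered HIST genes with the highest mean, with 3′ WRE-Mut libraries in red above control libraries in blue and replicate 2 as open points. HIST1H2BJ, HIST1H2BN, HIST1H2BC, HIST2H2BE, HIST1H2BD and HIST3H2A show both red points right of both blue ones, and HIST1H2AC shows both left of them. HIST1H2AH, HIST2H2AC and HIST1H3H show 3′ WRE-Mut libraries on either side of control.

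Among tested clustered genes, the 3 with the largest differences had a deposited locus that ran past the stem-loop. Taking the 66 genes with a mapped stem-loop, 42 had a locus of their own that ended no more than 51 bases past it, 10 had a locus of their own that ran 286 to 16604 bases past it and 14 shared a locus with other genes. Of the 5 tested genes whose own locus ran past the stem-loop, 4 were higher in both 3′ WRE-Mut libraries (HIST1H2BC, HIST1H2BJ, HIST1H2BN and HIST2H2BE) and 1 was lower in both (HIST1H2AC), with a median log2 difference of 0.99. Of the 11 tested genes whose locus ended at the stem-loop, 1 was higher in both, 1 was lower in both and 9 overlapped, with a median of 0.28. The 5 tested genes at shared loci had a median of 0.52. Of all protein-coding genes tested, 30.8% were higher in both and 32.1% lower in both. The 4 higher genes with a long locus all encode H2B, and no H2B gene was among the 11. Where the locus ends and the histone type therefore cannot be told apart among these higher genes. Below the filter, the loci of the H2B genes HIST3H2BB and HIST1H2BO ended 5 and 6 bases past the stem-loop. HIST3H2BB was higher and HIST1H2BO lower in both 3′ WRE-Mut libraries. Of untested genes of other types with a long locus of their own, HIST1H2AG was lower in both. In HIST1H4E, HIST1H4H, HIST2H2AA3 and HIST4H4 the groups overlapped. The split was made after the values were seen and carries no test. The long-locus median ranged from 0.66 without 3′ WRE-Mut replicate 2 to 1.46 without 3′ WRE-Mut replicate 1. The locus of HIST1H2BJ ran 6425 bases past its stem-loop, which lies at chr6:27100100-27100115 on the minus strand, and that of HIST1H2BN ran 16604 bases past its own at chr6:27806868-27806883 on the plus strand.
HIST1H2BJ stem-loop: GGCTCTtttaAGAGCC
HIST1H2BN stem-loop: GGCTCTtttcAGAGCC
The genes HIST1H1C and HIST3H2A, whose loci end 5 and 6 bases past the stem-loop, had means of 50.3 and 22.9 FPKM over the 4 libraries.

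Promoters of the members were read from RefSeq (GRCh38.p14), from 250 bases before to 50 after the start. A CCAAT box, the site of NF-Y and a known element of histone promoters, was looked for as CCAAT or, on the other strand, ATTGG. It was found in 51 of 60 clustered promoters (85.0%), in 11 of 14 variant promoters (78.6%) and in 35.7% of all 27305 promoters. The clustered promoters without a box were all of H4 genes. Among H4 promoters, only those of HIST1H4F, HIST1H4I and HIST1H4L held it. The E-box CACGTG, the site of MYC and its partner MAX, reads the same on both strands and was found in 0 of 60 clustered and 0 of 14 variant promoters, and in 7.43% of all promoters. A match is a description of these letters only. Some windows overlap or hold the same sequence, such as those of H2AFB1, H2AFB2 and H2AFB3, of HIST2H4A and HIST2H4B, and of HIST1H2AD and HIST1H3D. The counts of promoters are therefore not counts of separate sequences. The promoters of H2AFX and HIST1H2BJ, the called genes, and of HIST2H2BE are shown with CCAAT and ATTGG in capitals. They lie on the minus strand at chr11:119095416-119095715, chr6:27132746-27133045 and chr1:149886633-149886932 of GRCh38.p14.
H2AFX: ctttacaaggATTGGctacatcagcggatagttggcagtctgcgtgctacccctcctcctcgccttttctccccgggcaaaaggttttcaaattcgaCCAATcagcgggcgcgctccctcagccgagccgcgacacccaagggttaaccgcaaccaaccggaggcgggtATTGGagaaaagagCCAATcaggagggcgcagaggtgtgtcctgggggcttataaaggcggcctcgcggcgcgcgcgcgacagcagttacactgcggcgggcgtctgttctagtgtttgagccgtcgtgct
HIST1H2BJ: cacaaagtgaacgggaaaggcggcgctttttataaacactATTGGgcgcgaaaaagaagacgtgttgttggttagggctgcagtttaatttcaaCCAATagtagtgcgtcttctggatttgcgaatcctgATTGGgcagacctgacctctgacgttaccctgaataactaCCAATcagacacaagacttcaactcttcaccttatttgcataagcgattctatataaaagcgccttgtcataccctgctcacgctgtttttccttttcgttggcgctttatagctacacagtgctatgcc
HIST2H2BE: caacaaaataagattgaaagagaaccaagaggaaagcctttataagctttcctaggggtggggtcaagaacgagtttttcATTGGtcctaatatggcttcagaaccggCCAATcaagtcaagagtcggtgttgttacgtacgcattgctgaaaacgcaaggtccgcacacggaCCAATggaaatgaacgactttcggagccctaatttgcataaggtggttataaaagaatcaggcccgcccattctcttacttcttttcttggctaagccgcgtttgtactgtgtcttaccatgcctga
H2AFX and HIST1H2BJ each hold 4 such boxes and HIST2H2BE holds 3. The HIST2H2BE window shares 265 of its 300 bases with that of HIST2H2AC, which is transcribed the other way. In 3′ WRE-Mut replicate 2 both genes of this pair were above both control libraries, while in 3′ WRE-Mut replicate 1 HIST2H2BE was above them and HIST2H2AC below them.

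Members below the filter were many and low. Of the 50 other clustered genes, 23 were at 0 in every library and the other 27 did not exceed 2.14 FPKM in any. HIST1H3A, with a mean of 0.958 FPKM just under the filter and a locus that ended 11 bases past the stem-loop, had 2.14 and 1.47 FPKM in 3′ WRE-Mut and 0 and 0.227 FPKM in control. HIST2H2BF and HIST3H2BB were also higher in both 3′ WRE-Mut libraries, while HIST1H4K, HIST1H3B, HIST1H2BO, HIST1H2BF and HIST1H2AG were lower in both. HIST1H2BF had 0.143 and 0.131 FPKM in 3′ WRE-Mut and 0.190 and 0.183 FPKM in control. HIST1H3B had 0.704 and 0.727 FPKM in 3′ WRE-Mut and 0.937 and 0.898 FPKM in control. For both the authors' lower bound was 0 in all 4 libraries. Differences this small cannot be told from the scale of the libraries, whose depth is unknown. HIST1H4K had 0.312 and 0 FPKM in 3′ WRE-Mut and 1.25 and 0.797 FPKM in control. Of the pseudogenes and antisense RNAs, H1FX-AS1 was the only one to average 1 FPKM, 18 of 31 were at 0 in every library and the other 12 did not exceed 1.49 FPKM.

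Genes that act on histones were taken from lists. Of 18 factors for the 3′ ends of histone mRNAs and their decay, 17 were tested, 0 were higher and 2 fell. In the same fit 4.0% of protein-coding genes were called higher and 4.29% lower. The median log2 difference of the factors was -0.17. SLBP was not called, at 43.1 and 34.2 FPKM in 3′ WRE-Mut and 64.3 and 55.2 FPKM in control (log2 difference -0.62, adjusted p = 0.122). NCBP1, the large subunit of the nuclear cap-binding complex, had 2.80 and 2.01 FPKM in 3′ WRE-Mut and 9.05 and 7.03 FPKM in control (adjusted p = 0.0312). ERI1, an exonuclease that trims the histone stem-loop, had 9.88 and 11.7 FPKM in 3′ WRE-Mut and 21.1 and 24.4 FPKM in control (adjusted p = 0.0452). The authors' lower bound for NCBP1 was 0 in all 4 libraries. The deposited loci of NCBP1 and ERI1 are merged over 5 and 4 genes. Neither was called when either control library was left out, where no more than 0.511% of protein-coding genes were called lower. Without 3′ WRE-Mut replicate 1, 5 factors, SLBP among them, were called lower, as were 19.9% of protein-coding genes.

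Of 25 histone chaperones and exchange factors, all tested, 0 were higher and 5 fell, where 4.0% and 4.29% of protein-coding genes were called. Their median log2 difference was -0.13. NASP, which holds H1 and the H3-H4 pair, had 14.8 and 12.6 FPKM in 3′ WRE-Mut and 34.3 and 36.1 FPKM in control (log2 difference -1.30, adjusted p = 0.0256). ASF1B and ASF1A, which hand over H3-H4, stood at 4.38 and 2.56 FPKM and at 2.51 and 1.73 FPKM in 3′ WRE-Mut, against 10.6 and 9.71 FPKM and 7.76 and 5.59 FPKM in control. The other 2 that fell were ATRX, which places H3.3 with DAXX, and RBBP4, a subunit of the assembly factor CAF-1. The authors' lower bound for ATRX was 0 in all 4 libraries. Merged deposited loci hold ASF1A (6 genes), ASF1B, ATRX and RBBP4 (2 each). The groups overlapped in none of the 5, and 0 of them were called when control replicate 1 or control replicate 2 was left out, as with nearly all protein-coding genes.

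Of 21 S phase genes, 20 were tested and limma called 0 higher and 0 lower, where 4.0% and 4.29% of protein-coding genes were called. By the unadjusted p, 1 (PCNA) was higher and 2 were lower, against 14.6% and 15.6% of protein-coding genes. The median log2 difference was -0.34. Calls appeared with a library left out: leaving out 3′ WRE-Mut replicate 1 gave 1 higher (PCNA) and 2 lower (CCNE2 and MCM3), where 17.3% and 19.9% of protein-coding genes were called, and leaving out 3′ WRE-Mut replicate 2 gave 3 lower (CDC6, MCM3 and RRM2), where 5.75% were. Of 21 non-histone genes that lie among the chromosome 6 histone genes, 10 were tested and limma called 0 in either direction. By the unadjusted p, 2 were higher and 0 lower, against the same 14.6% and 15.6%, and the median was 0.19.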

How the data were processed

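RNA-Seq values of 4 libraries were used, 2 of 3′ WRE-Mut and 2 of control cells. Single reads were filtered by the authors (FASTX-Toolkit) and aligned by TopHat2 2.0.9 to hg19, and the authors computed FPKM with Cufflinks on the Gencode annotation, and the submitters' processing notes name CASAVA 1.8.2 and Cufflinks 2.2.1, where the paper's methods name an earlier Cufflinks. The deposited FPKM table also holds the authors' lower and upper bounds. A second deposited table with group means, fold changes and test results from Cuffdiff was not used. FPKM were scaled by the authors for length and library size. A further gene that the name rule takes in is not reported here and is in no count or sum of members. Strand, the treatment of reads that match several genes and the depth are not given in the sources used here, so low values carry an unknown counting error.

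log2(FPKM + 1) was compared by group with limma 3.58.1 in R 4.3.3, with a variance trend and a threshold of 0.05 on the adjusted p, for genes that averaged 1 FPKM or more. The fit was tested on simulated data. Classes came from Gencode v44lift37 by gene ID for 78 members and through RefSeq synonyms for 39. Stem-loops were searched in GRCh37, the sequence of hg19. For 5 clustered genes without a unique current entry it was not searched. P-values set the group difference against the spread within the groups of these 4 libraries, moderated by that of all genes in the fit. Plots were made in matplotlib 3.10.9 (Python 3.11.15).

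Values in every library are given for each called member, each variant gene that averaged 1 FPKM or more, the 15 clustered genes with the highest mean and any clustered gene past the filter with a log2 difference of at least 1 and no overlap. From the lists up to 4 called genes are named. HIST1H2AD, HIST1H3E, HIST1H3A and the other clustered genes named below the filter, RBBP4, SLBP and the S phase genes were added after their values were seen. Members, lists and tests were chosen with earlier results of these data known. Alternatives left out each library in turn, used replicate number as a block, dropped the variance trend, applied quantile normalization or median-ratio scaling, set the filter to 5 FPKM or to none, and set the pseudocount to 0.1 or 0.5. Those for the lists and for the locus ends were added after the data were seen.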

Additional observations from a re-analysis of the deposited data

How the results depend on the processing

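Over all genes, 0 histone genes were called in either direction under each of the 12 alternatives. Over protein-coding genes, where 1 was called higher and 1 lower, 0 were called in either direction with no filter on low values (0 higher and 1 lower of all 18032 tested), 0 higher with a mean of at least 5 FPKM (which leaves HIST1H2BJ out), and 2 higher (HIST1H2BJ and HIST1H2BN) and 3 lower (H2AFX, H2AFY and H3F3B) with quantile normalization (5.63% and 5.45% of all). Leaving out 1 library gave 0 to 10 higher and 0 to 6 lower. With no filter, the adjusted p of H2AFX was 0.191 and that of HIST1H2BJ 0.202. The median log2 difference of clustered genes was 0.14 with no filter and 0.18 to 0.52 without 1 library, and that of variant genes was -0.41 to -0.16 without 1 library. Over all protein-coding genes the median lay between -0.08 and 0.04 under every alternative.

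With a replicate block, 6 members were called higher and 4 lower over protein-coding genes, where 11.0% and 13.6% of all tested were, and 0 over all genes. Deviations of same-numbered libraries from their group means correlated at 0.109 over protein-coding genes, with only 2 pairs, so the libraries were taken to share a number and not a pairing.

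The sign turned for 6 of the 24 named members, none of them called: H1FX (-0.030 with quantile normalization, -0.073 to 0.31 without 1 library), H2AFZ (-0.018 and -0.25 to 0.55), HIST1H2AH (-0.039 with a pseudocount of 0.1, -0.85 to 1.05 without 1 library), and, without 1 library, HIST1H2BK (-0.38 to 0.26), HIST1H3H (-0.81 to 1.36) and HIST2H2AC (-0.56 to 1.47). The cause was not tested.

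Depth is unknown, so whether low clustered genes differ beyond counting error cannot be told. The authors' lower bound was 0 in all 4 libraries for 50 of the 71 clustered genes and for 6 of the 15 variant genes. With 2 libraries a group, and both 3′ WRE-Mut libraries from 1 clone, the spread is between libraries and not between clones.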
